A study of Mus musculus with 6 samples.

Results

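The lysosomal hydrolases and autophagy genes described here are 35 of the 21448 genes in the deposited expression table, and all 35 were found in it by their symbols. They comprise 9 lysosomal proteases (8 cathepsins and legumain), 9 other hydrolases and their activator proteins, 4 lysosomal membrane proteins, the 3 TFEB-family transcription factors and 10 genes of the autophagy core. RNA was sequenced from primary B cell lymphomas of E mu-Myc transgenic mice, whose lymphomas arise from Myc placed under an enhancer of the immunoglobulin heavy chain, with 3 libraries of wild type genotype and 3 of PRDM15 knockout genotype by their labels. PRDM15 is a PR domain protein with zinc fingers, and the series' title ties it to the metabolism of B cells. Every library came from lymphoma cells kept in culture with IL7, so the transgene and the culture are common to both groups. The labels' protocols give 4-hydroxytamoxifen (OHT, 50 nM) as the agent that deletes Prdm15 and ethanol as the control, each for 24 hours, with collection 3 days later. Which libraries received OHT is inferred from the genotype label, and the recombinase is not named in the labels. OHT exposure and deletion therefore cannot be told apart.

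Lysosomes are acidic compartments in which proteases, glycosidases, lipases and nucleases break down material delivered by endocytosis and by autophagy. In autophagy, the ULK1 kinase and the Beclin 1 lipid kinase complex start a double membrane, proteins of the ATG8 family are joined to it, and the closed vesicle fuses with the lysosome. TFEB, TFE3 and MITF are related transcription factors that bind the sequence CACGTG and its variants in front of many lysosomal genes, and MYC with its partner MAX binds the same core. Macrophages are rich in lysosomes, and B cells use cathepsins and legumain in processing antigen.

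Promoter sequences are shown for the 6 members that hold the TFEB-family core within 100 bases before a listed start, and for Dnase2a, the member that passed a test below. Each is the stretch of 100 bases before an annotated start in RefSeq's table (GRCm38.p6, a later build than the mm9 named by the submitters), 5′ to 3′ on the gene's strand, with CACGTG in capitals. The windows were chr7:142387828-142387927 (minus strand) for Ctsd, chr2:164833673-164833772 (plus) for Ctsa, chr8:13159061-13159160 (plus) for Lamp1, chr8:3500419-3500518 (plus) for Mcoln1, chr12:102439093-102439192 (minus) for Lgmn, chr10:44268239-44268338 (plus) for Atg5 and chr8:84908655-84908754 (plus) for Dnase2a.
Ctsd: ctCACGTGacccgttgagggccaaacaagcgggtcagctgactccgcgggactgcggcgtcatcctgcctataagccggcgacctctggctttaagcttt
Ctsa: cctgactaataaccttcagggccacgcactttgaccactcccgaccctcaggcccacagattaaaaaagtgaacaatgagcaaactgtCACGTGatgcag
Lamp1: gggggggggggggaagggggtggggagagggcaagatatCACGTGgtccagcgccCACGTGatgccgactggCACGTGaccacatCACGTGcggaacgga
Mcoln1: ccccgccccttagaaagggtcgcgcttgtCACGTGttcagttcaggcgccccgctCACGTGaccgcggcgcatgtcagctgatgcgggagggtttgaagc
Lgmn: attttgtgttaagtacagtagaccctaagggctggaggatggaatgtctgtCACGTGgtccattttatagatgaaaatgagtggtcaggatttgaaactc
Atg5: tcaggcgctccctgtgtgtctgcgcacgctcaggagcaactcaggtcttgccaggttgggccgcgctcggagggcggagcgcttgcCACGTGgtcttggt
Dnase2a: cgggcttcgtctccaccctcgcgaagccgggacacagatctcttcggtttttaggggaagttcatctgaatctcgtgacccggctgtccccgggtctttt
For Ctsa and Lgmn, 2 starts each are listed, and the start whose window holds the core is shown. Lamp1 held 4 copies, first bases at -61, -45, -28 and -15 from the start, and Mcoln1 held 2, at -71 and -45. The 100 bases of Dnase2a held none.

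Of the 32 members with a window in that table (250 bases before to 50 after the start), 10 held CACGTG, or 31.2%, against 8.09% of the 27025 genes listed. The sequence reads the same on both strands. The 10 were Ctsa, Ctsd, Ctsl, Lgmn, Gla, Gaa, Lamp1, Mcoln1, Atg5 and Atg7. The longer TCACGTG, searched on both strands and containing the core, was in 8 members (25%) and in 4.29% of all genes. A match in these windows is a description of the letters and not of binding.

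Libraries held 28852951 to 47255421 reads assigned to genes, and values are library-size scaled reads (CPM), with mean ± SD with n = 3 libraries per group. They are not divided by transcript length. Prdm15 was at 29.2, 47.3 and 41.3 in wild type libraries 1, 2 and 3 and at 40.2, 40.9 and 39.2 in the libraries labelled knockout. A sum over the gene does not show a deleted exon, so these values do not check the labels and directions rest on the labels alone. B cell markers were present throughout, with Cd79b, a B cell receptor subunit, between 389 and 519. The 12 B cell markers summed to 1859 to 2477 in wild type and 1846 to 2400.5 in labelled knockout libraries. The genes of the list did not all hold steady: Cd22, an inhibitory B cell coreceptor, was at 98.7, 125 and 56.2 in wild type libraries 1, 2 and 3 and at 62.7, 39.3 and 24.6 in labelled knockout (paired adjusted p = 0.0711 in limma and 4.58e-07 in DESeq2). Rag1, a recombinase of precursor B cells, was at 0.721, 1.78 and 2.85 in wild type libraries 1, 2 and 3. In labelled knockout it was at 18.1, 4.11 and 4.69, all above wild type (3.21% of all tested genes were). Its paired adjusted p was 0.216 in limma and 0.0355 in DESeq2. Ms4a1, which encodes CD20, lay between 0.498 and 6.04.

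Myeloid markers stood far apart between libraries and, like the summed level of the 35 members, were highest in labelled knockout replicates 2 and 3. Among the wild type libraries the order differed, with the members summing to 3046, 2696 and 3280 in libraries 1, 2 and 3. The 24 markers summed to 65.8, 227 and 174 in wild type libraries 1, 2 and 3 and to 40.8, 2293 and 1233 in labelled knockout replicates 1, 2 and 3. Lyz2, a lysozyme gene of myeloid cells, was at 10.7, 1471 and 820.3 in the labelled knockout libraries. Adgre1, the macrophage protein F4/80, was at 0.965, 68.7 and 27.4. Labelled knockout replicates 2 and 3 thus lay above every other library and labelled knockout replicate 1 below. Of the 24 markers, 17 reached the tested level. The granulocyte genes S100a9 and Elane were at 0 in labelled knockout replicates 1 and 2, and no marker was at 0 in replicate 3. The low sums of T and NK cell markers and of erythroid and platelet markers were also highest in labelled knockout replicate 2. The stromal and endothelial sum was highest in labelled knockout replicate 3, at 102 against 56.2 in replicate 2, and Pecam1 made up 101 of that 102. The 8 T and NK cell markers summed to 5.85, 2.16 and 1.67 in wild type libraries 1, 2 and 3 and to 7.75, 21.6 and 8.11 in labelled knockout. In labelled knockout replicates 2 and 3, Cd28 made up 11.0 and 6.09 of these sums and Cd8a 5.14 and 0.0237. The 7 erythroid and platelet markers summed to 4.73, 7.47 and 4.19 and to 1.66, 49.3 and 28.2, of which Pf4, a platelet chemokine, made up 48.7 and 27.2 in the last 2 libraries. Pf4 was the only 1 of the 7 to reach the tested level. The platelet genes Ppbp and Itga2b were at 0.0251 and 0.401 in labelled knockout replicate 2 and at 0.142 and 0.356 in replicate 3. The part of any of these transcripts in the lysosomal values was not tested. In bulk RNA, a change in the share of cells of one type and a change in RNA per cell cannot be told apart.

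Libraries with the same number were compared as pairs, since they deviated together from their group means. Changes are log2(value + 1), labelled knockout minus wild type. Rose and fell are written only of genes with a limma adjusted p under 0.05, with or without the pairs in the fit. Of the 35 members, 34 passed the filter of a mean of at least 1, and Wipi1, a protein of the forming autophagosome, did not, at 0.301 to 1.58. Without the pairs 0 of 34 members passed limma, with 3 at an unadjusted p under 0.05, all higher (1.16% of all genes were), and edgeR and DESeq2 also called 0. The background was 0.00949% of 10533 genes called in limma, 0% in edgeR and 1.04% in DESeq2. With the pairs 1 of 34 passed, Dnase2a, against 0.873% of all genes called and 0.133% called higher. At an unadjusted limma p under 0.05 with the pairs, 9 members were higher, against 7.41% of all genes. Lower at that threshold was 1 of 34 members, Tfeb, against 1432 of 10533 genes. DESeq2 with the pairs called 2 members, Dnase2a and Lamp1, against 7.01% of all genes, and edgeR with the pairs called 0, against 0.37%.

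Dnase2a, which encodes the acid nuclease that degrades DNA in lysosomes, rose, and was higher in all 3 pairs. It was at 10.6, 15.0 and 20.5 in wild type libraries 1, 2 and 3 and at 21.6, 31.5 and 32.0 in labelled knockout replicates 1, 2 and 3. All labelled knockout values lay above all wild type values. The log2 differences were 0.96, 1.02 and 0.62 in pairs 1, 2 and 3, and the myeloid markers summed to 65.8 and 40.8 in the libraries of pair 1. The means were 15.4 ± 4.93 and 28.3 ± 5.83, and the ratios within pairs were 2.03, 2.10 and 1.56. The log2 change was 0.87 ± 0.104 (SE with the pairs; limma adjusted p = 0.0430). Without the pairs the SE was 0.27 and the adjusted p 0.9998. An exact two-sided permutation test over the 6 libraries gave p = 0.1, the smallest it can give. With the pairs, DESeq2 called it (adjusted p = 3.91e-07) and edgeR did not (0.0599). Its call was lost without pair 2 (limma adjusted p = 0.243) and without pair 3 (0.159), with log2 changes of 0.79 and 0.99. Both of these fits called 0 of all tested genes, so the loss is not particular to Dnase2a. The gene overlaps exons of Mast1 on the other strand in a later annotation, and Mast1 was at 0.125 to 0.565 in the 6 libraries.

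**Figure D1:**
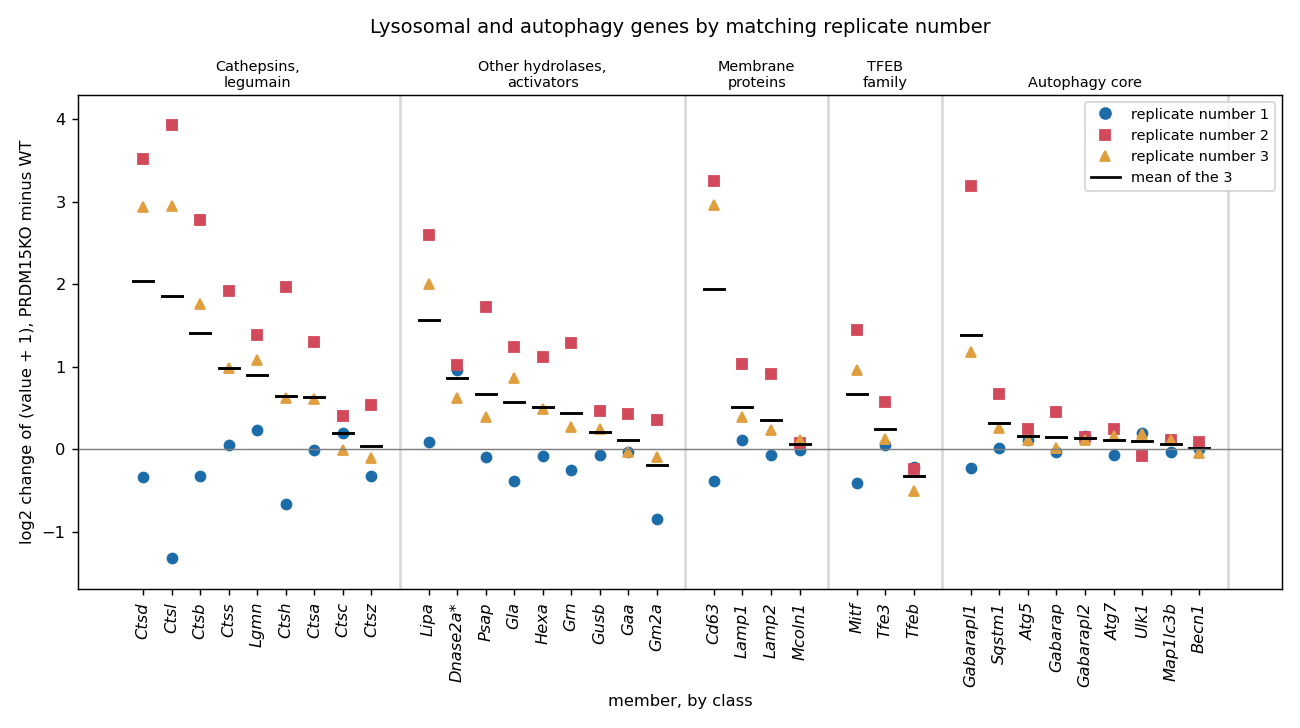
Log2 change of value + 1, labelled knockout minus wild type on the vertical axis for the 34 tested members ordered by class and by mean change, with 1 symbol per replicate number and a black bar for the mean of the 3 pairs; the asterisk marks the limma adjusted p under 0.05 with the pairs in the fit. Dnase2a lay at 0.96, 1.02 and 0.62, while Ctsd, Ctsl, Cd63 and Lipa lay at 2.00 or more in pairs 2 and 3 and at most 0.09 in pair 1.

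Over the members as a whole, changes were near 0 in pair 1 and positive in pairs 2 and 3. The median log2 change was -0.05, 0.97 and 0.27 in pairs 1, 2 and 3, against -0.05, -0.002 and -0.04 over all tested genes. Over all libraries the median was 0.40, against -0.03 for all genes, and 32 of 34 members lay above 0, against 4525 of 10533 tested genes. Leaving out wild type replicate 2 took the members' median to 0.15, leaving out pair 2 to 0.14 and leaving out pair 1 to 0.64. In pair 1, 0 members were at least 2-fold higher (0.513% of all genes were) and Ctsl was at least 2-fold lower. In pair 2, 17 of 34 were at least 2-fold higher (50%, against 4.58% of all genes), and in pair 3, 7 of 34 (20.6%, against 2.65%). Lower in pair 1 and higher in both others were 18 of 34 members (52.9%), against 11.5% of all genes, and higher in all 3 pairs were 9 (26.5%), against 16.7%. Labelled knockout replicates 2 and 3 had the highest summed level of the members as well as of the myeloid markers. Without these libraries the median was -0.07, 20 members lay below 0 and 14 above, and 18 changed sign. Since the changes of pairs 2 and 3 were the positive ones, leaving them out was bound to lower the median. The cause was not tested. That fit has a lone library in the labelled knockout group, assumed to vary like the wild type libraries. It keeps all 3 wild type libraries and does not use the pairs. Without pair 1, and with the pairs in the fit, 18 members were called, all higher (52.9%, against 4.61% of all genes called higher). Without pair 2 or pair 3, 0 members and 0 of all tested genes were called.

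Cathepsins and legumain, the proteases of the lysosome, spanned the widest range. Their summed level was 1122, 1016 and 997 in wild type libraries 1, 2 and 3 and 1033, 5508 and 2677 in the labelled knockout libraries. Labelled knockout replicate 1 thus lay among the wild type libraries, and replicates 2 and 3 far above them. The median log2 change over the 9 genes was 0.90, and -0.32, 1.92 and 0.99 in pairs 1, 2 and 3. Without labelled knockout replicates 2 and 3 it was 0.06, and without pair 2 it was 0.52. All 9 were above 0 in pair 2, 7 in pair 3 and 3 in pair 1, and 0 of 9 passed the test. Of all tested genes, 49.7% were above 0 in pair 2, 39% in pair 3 and 40.3% in pair 1.

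Ctsd, the aspartic protease cathepsin D, was at 144, 252 and 157 in wild type libraries 1, 2 and 3 and at 114, 2895 and 1204 in the labelled knockout libraries. Ctsb, the cysteine protease cathepsin B, was at 105, 145 and 139 and at 83.4, 999.9 and 473. Ctsl, cathepsin L, given after its values were seen, was at 31.3, 23.3 and 13.1 and at 11.9, 370.0 and 108. In each of these, labelled knockout replicate 1 was the lowest of the 6 libraries and replicates 2 and 3 were the highest, so the groups overlapped. The log2 changes were 2.04 for Ctsd, 1.40 for Ctsb and 1.85 for Ctsl, with paired adjusted p of 0.221, 0.247 and 0.344. Relative to the wild type library of the same number, Ctsd was 0.791, 11.5 and 7.68 times as high.

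Ctss, the cathepsin that trims the invariant chain of MHC class II in antigen-presenting cells, was at 184, 90.3 and 98.7 in wild type libraries 1, 2 and 3. In the labelled knockout libraries it was at 190.2, 344 and 197, all above wild type. Lgmn, the asparaginyl endopeptidase legumain, given after its values were seen, was at 104, 72.6 and 61.3 and at 122, 191 and 131, again without overlap. Their log2 changes were 0.98 and 0.90, and both missed the test (limma adjusted p with the pairs 0.208 and 0.139; 0.9998 and 0.956 without). In pair 1 the differences were 0.05 for Ctss and 0.23 for Lgmn on the log2 scale. Members with all labelled knockout libraries above all wild type libraries were 5 of 34 (Lgmn, Ctss, Dnase2a, Tfe3 and Atg5), or 14.7%, against 3.21% of all tested genes.

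The other proteases varied less between the groups. Ctsz, the carboxypeptidase cathepsin Z, was at 248, 232 and 245 in wild type libraries 1, 2 and 3 and at 198, 336 and 228 in labelled knockout (log2 change 0.04). Ctsc, which activates serine proteases of leukocyte granules, lay between 121 and 198 over all 6 libraries (0.19). Ctsa, the protective protein of beta-galactosidase and sialidase, was at 89.2, 74.4 and 92.1 and at 88.5, 185 and 141 (0.63). Ctsh, an aminopeptidase, was spread from 5.79 to 44.3 within wild type alone (0.64). Exons of Ctsa, Ctsb, Ctsl and Ctsz overlap genes on the other strand in GENCODE M21. So do those of Hexa, Grn, Lamp1, Sqstm1, Map1lc3b, Gabarapl1 and Becn1 below. Of the genes from other lists below, Bnip3, Wdfy3, Tax1bp1, Npc1, Sort1, Vps16 and Atg9a have such overlaps too. Exons of Ctsd, Ctsl and Atg9a overlap a predicted gene on their own strand. Whether the counting used strand is not stated, so reads of such partners may be included. For Ctsz and Ctsc the differences in pairs 1 and 3 had the opposite sign to pair 2 or were at most 0.19.

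**Figure D2:**
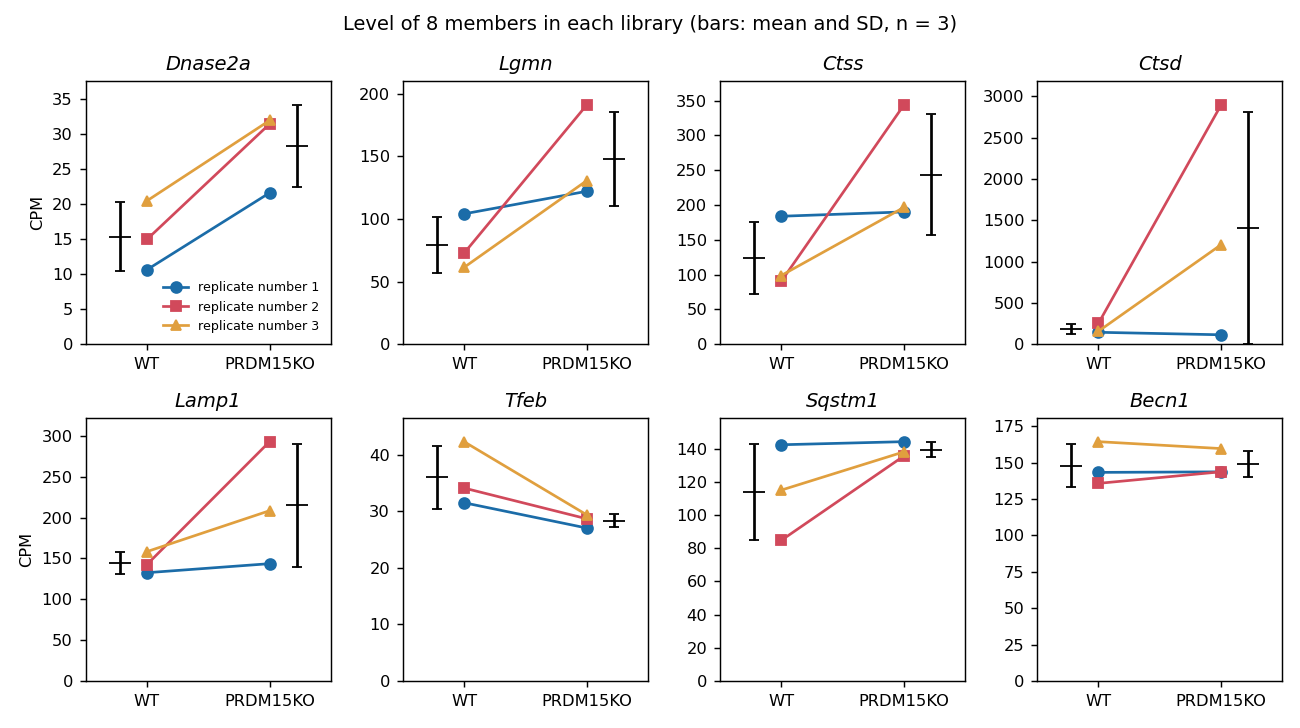
Level of 8 members in CPM (vertical axes from 0, a different range in each panel) per library, a line connecting each pair and black bars giving the mean with its SD (n = 3). Dnase2a went up in every pair (10.6 to 21.6, 15.0 to 31.5 and 20.5 to 32.0) and Tfeb was lower in every pair, while Ctsd was high in labelled knockout replicates 2 and 3 only, at 2895 and 1204.

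Among the other hydrolases and activators, Dnase2a alone passed, and 8 of 9 did not. The summed level of the class was 1120, 987 and 1420 in wild type libraries 1, 2 and 3 and 985, 2676 and 1849 in labelled knockout. The median log2 change was 0.51, and -0.08, 1.12 and 0.39 in pairs 1, 2 and 3. Without labelled knockout replicates 2 and 3 it was -0.21, so its sign rests on these libraries. It was 0.86 without labelled knockout replicate 1, 0.24 without replicate 2, 0.80 without pair 1 and 0.15 without pair 2.

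Psap, the precursor of the saposins that present sphingolipids to their enzymes, was at 553, 554 and 834 in wild type libraries 1, 2 and 3 and at 518, 1829 and 1089 in labelled knockout (log2 change 0.67, paired adjusted p = 0.325). Hexa, the alpha subunit of beta-hexosaminidase, was at 79.6, 76.5 and 108 and at 75.2, 167 and 151 (0.51). In both genes labelled knockout replicates 2 and 3 were the 2 highest libraries and replicate 1 the lowest. Lipa, the acid lipase that frees cholesterol from its esters, given after its values were seen, was at 15.4, 24.1 and 20.9 and at 16.5, 151 and 86.9 (1.56). Its ratio to wild type was 1.07, 6.26 and 4.15 in pairs 1, 2 and 3.

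Gusb, beta-glucuronidase, was at 157, 123 and 137 in wild type libraries 1, 2 and 3 and at 149.8, 170.3 and 162 in labelled knockout (log2 change 0.21). Gm2a, the activator of ganglioside GM2 breakdown, was at 185, 113 and 144 and at 102, 145 and 135 (-0.19). It is one of the 2 members with a mean change below 0, and its largest difference was -0.84 in pair 1. Gla, alpha-galactosidase A (0.57), Gaa, acid alpha-glucosidase (0.12), and Grn, the lysosomal protein progranulin (0.43), did not pass either, and all were highest in a labelled knockout library of number 2 or 3.

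The membrane proteins differed widely in how far labelled knockout replicates 2 and 3 lay from wild type, with Cd63 at one end and Mcoln1 at the other. Cd63, a tetraspanin of late endosomes, was at 1.26, 2.13 and 1.07 in wild type libraries 1, 2 and 3 and at 0.732, 28.7 and 15.2 in labelled knockout (log2 change 1.94, paired adjusted p = 0.230). Lamp1, a heavily glycosylated protein of the lysosomal membrane, was at 132, 142 and 158 and at 144, 293 and 208 (0.51). DESeq2 with the pairs called Lamp1 (adjusted p = 0.0145), while limma and edgeR with the pairs did not (0.205 and 0.198). Lamp2, the receptor of chaperone-mediated autophagy, was at 74.7, 59.7 and 105 and at 71.1, 113 and 124 (0.36). Mcoln1, the calcium channel TRPML1, lay between 10.7 and 12.6 in all libraries (0.06). The class median was 0.44 and, without labelled knockout replicates 2 and 3, -0.09. It was 0.69 without labelled knockout replicate 1, 0.27 without replicate 2 and 0.17 without pair 2.

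The 3 TFEB-family factors differed in direction. Tfeb was at 31.5, 34.1 and 42.3 in wild type libraries 1, 2 and 3 and at 27.0, 28.7 and 29.4 in labelled knockout, with no overlap, the only member so placed (6.29% of all genes were). Its log2 change was -0.32 ± 0.0838 (SE with the pairs), which missed the test (limma adjusted p = 0.147), and its differences were -0.21, -0.24 and -0.51 in the 3 pairs. It was the only member lower in all pairs (2.94% of members, against 29.9% of all genes). Tfe3 was at 9.08, 7.85 and 9.33 and at 9.45, 12.1 and 10.2 (0.25). Mitf, the melanocyte and osteoclast member of the family, was at 1.87, 1.96 and 2.48 and at 1.16, 7.08 and 5.76 (0.67), with the high values in the libraries high for myeloid markers. Neither passed. The median of the family was 0.25, and it was 0.16 without labelled knockout replicate 2 and 0.087 without pair 2.

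The summed level of the autophagy core varied less between libraries than that of the cathepsins, while its low genes Gabarapl1 and Wipi1 varied more. Wipi1, which was not tested, was at 0.427, 0.301 and 0.556 in wild type libraries 1, 2 and 3 and at 0.632, 1.58 and 0.569 in labelled knockout. The summed level was 541, 433 and 534 in wild type libraries 1, 2 and 3 and 549, 549 and 576 in labelled knockout. The median log2 change of the 9 tested genes was 0.14, and 0.004, 0.24 and 0.12 in pairs 1, 2 and 3. Without labelled knockout replicates 2 and 3 it was 0.18, and without wild type replicate 2 it was 0.06. None of the 9 passed limma with or without the pairs (1 at an unadjusted p under 0.05 with them, 0 without), and edgeR and DESeq2 called 0.

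Becn1, the Beclin 1 scaffold of the lipid kinase that starts autophagosomes, was at 143, 136 and 164 in wild type libraries 1, 2 and 3 and at 144, 144 and 159.6 in labelled knockout (log2 change 0.01). Sqstm1, the cargo receptor p62, was at 142, 84.8 and 115 and at 144, 136 and 138 (0.32). Both overlapped between the groups, and the 3 labelled knockout values of Sqstm1 lay within 144 and 136 while its wild type values spread more widely. Gabarap, an ATG8-family protein, was at 59.9, 55.6 and 74.1 and at 58.7, 76.5 and 75.0 (0.15). Map1lc3b, the ATG8-family protein LC3B, was at 70.0, 51.8 and 60.3 and at 68.6, 55.8 and 65.5 (0.06).

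Gabarapl1, a close relative of Gabarap given after its values were seen, was at 0.641, 0.902 and 4.15 in wild type libraries 1, 2 and 3 and at 0.399, 16.4 and 10.6 in labelled knockout (log2 change 1.38). It was the lowest in labelled knockout replicate 1 and the highest in replicates 2 and 3, as the summed myeloid markers were. Members of the ATG8 family resemble one another in sequence, so reads may be shared between them. The remaining core genes were Gabarapl2 (0.14), the kinase Ulk1 (0.10), and Atg5 (0.15) and Atg7 (0.11), which join ATG8 proteins to lipid. Atg5 was at 52.9, 45.6 and 53.1 and at 57.4, 54.0 and 57.2, without overlap and with a paired adjusted p of 0.232.

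**Figure D3:**
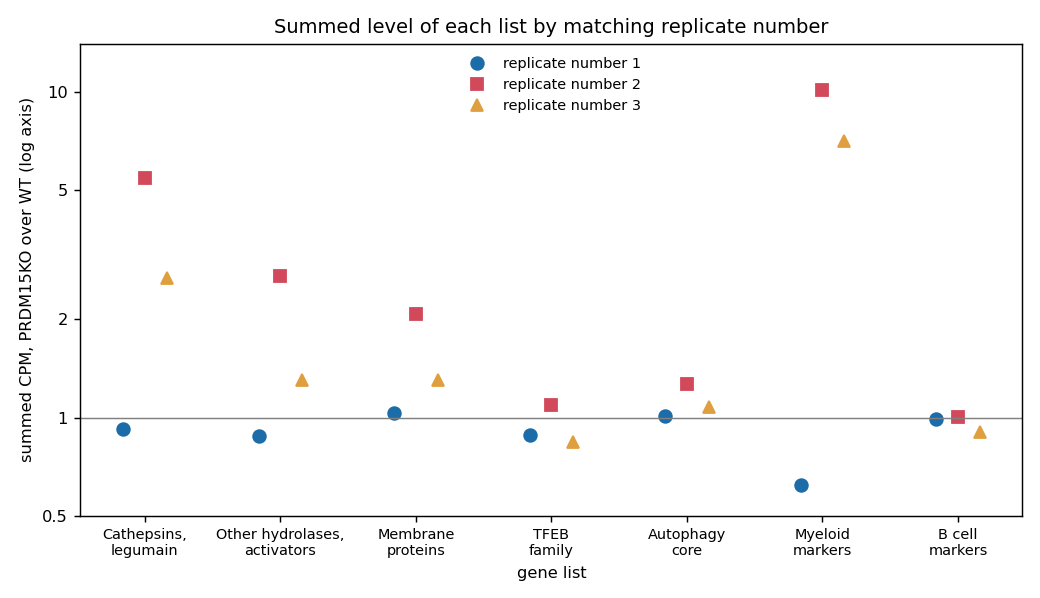
Summed CPM of each class and of the myeloid and B cell markers, as the ratio of the labelled knockout to the wild type library of the same number (log axis), with 1 symbol per replicate number. The ratios for cathepsins and legumain were 0.921, 5.42 and 2.69 in pairs 1, 2 and 3, those for myeloid markers 0.621, 10.1 and 7.07, and those for the autophagy core 1.01, 1.27 and 1.08.

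The ratios of summed levels differed between the classes. The ratio of summed levels, labelled knockout over wild type, in pairs 1, 2 and 3 was 0.921, 5.42 and 2.69 for cathepsins and legumain and 0.879, 2.71 and 1.30 for the other hydrolases. It was 1.03, 2.07 and 1.30 for the membrane proteins, 0.887, 1.09 and 0.838 for the TFEB family and 1.01, 1.27 and 1.08 for the autophagy core. Myeloid markers gave 0.621, 10.1 and 7.07 and B cell markers 0.993, 1.003 and 0.905. Pair 2 had the highest ratio and pair 1 the lowest in every class but the TFEB family, and in the myeloid markers. The summed level of all tested genes had the same order, at 0.931, 0.990 and 0.966 in pairs 1, 2 and 3. In the TFEB family and the B cell markers pair 2 was the highest and pair 3 the lowest. The 7 members at least 2-fold higher in both pairs 2 and 3 were Ctsb, Ctsd, Ctsl, Lgmn, Lipa, Cd63 and Gabarapl1. Of all tested genes, 4.58% were so in pair 2 and 2.65% in pair 3, and the share in both was not computed.

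Members with and without the CACGTG core are set side by side as a description. The median log2 change was 0.54 for the 10 with it and 0.32 for the 21 tested members without it. These groups differ in their classes. Those with CACGTG include Ctsa, Ctsd, Ctsl and Lgmn, but only Atg5 and Atg7 of the autophagy genes. The class medians were 0.90 for cathepsins and legumain and 0.14 for the autophagy core. The part of class in the difference was not tested. With and without CACGTG, the medians were -0.02 and -0.07 in pair 1, 1.14 and 0.67 in pair 2, and 0.50 and 0.24 in pair 3. Ctsd, Ctsl and Lgmn of the 7 members just named hold the core, Lipa, Cd63 and Gabarapl1 do not, and Ctsb has no window in the table. Mcoln1, with 2 copies, had a log2 change of 0.06.

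To compare the levels of members with each other, values were divided by exon length, taken from GENCODE M21, an annotation other than the authors'. In wild type libraries Psap was the highest at 236 CPM per kb (201.5 to 304), followed by Ctsz at 168 (161 to 172), Ctss at 91.6 (66.5 to 135) and Ctsd at 78.4 (61.4 to 107). The ranges of Ctss and Ctsd overlapped, so their order does not hold beyond the spread. Lamp1 came next at 54.0 (49.5 to 59.2). The lowest tested members per kb were Mitf at 0.339 and Cd63 at 0.403.

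Other genes of the lysosome and of autophagy were taken from 10 lists with 158 genes, of which 153 were tested. With the pairs 3 of the 153 passed limma, 1 higher and 2 lower (0.873% of all genes did), and 0 passed without them. Without the pairs 4 were higher and 5 lower at an unadjusted limma p under 0.05, against 122 and 306 of all 10533 genes. EdgeR without the pairs called 0 and DESeq2 3, against 0% and 1.04% of all genes. The median log2 change over the 153 was 0.05. The 3 genes that passed limma with the pairs were selective autophagy receptors or adaptors, of 10 tested. Bnip3, a mitophagy receptor, fell from 275, 156 and 117 in wild type libraries 1, 2 and 3 to 22.5, 21.6 and 23.0 (log2 change -2.88, paired adjusted p = 0.0313). Its relative Bnip3l fell from 200.3, 189.8 and 134 to 55.5, 64.3 and 53.5 (-1.56, 0.0187). Both fell in pair 1 at least as far as in the other pairs, with differences of -3.55 and -1.83.

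Wdfy3, the scaffold ALFY of aggregate clearance, rose in each pair from a level that differed widely between them. It was at 46.5, 9.85 and 51.5 in wild type libraries 1, 2 and 3 and at 76.7, 17.5 and 81.0 in labelled knockout (log2 change 0.71 ± 0.0613, SE with the pairs, limma adjusted p = 0.0313). Without the pairs its SE was 0.824. EdgeR with the pairs called Bnip3, Bnip3l and Wdfy3 too, with adjusted p of 0.0445, 0.0269 and 0.0277. The other 7 receptors did not pass, and Tax1bp1, with the highest mean CPM of the list over the 6 libraries, was at 185 ± 3.37 and 224 ± 15.8 (log2 change 0.27).

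**Figure D4:**
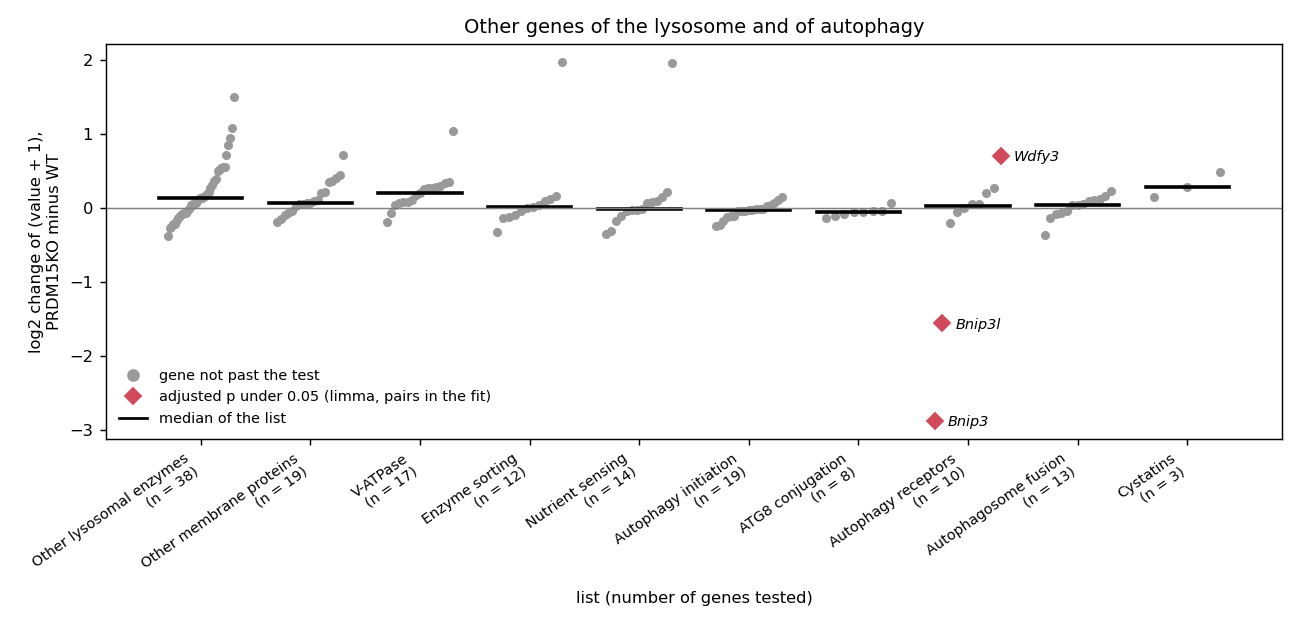
Log2 change of value + 1, labelled knockout minus wild type on the vertical axis for the 153 tested genes of 10 further lysosome and autophagy lists, with grey circles for genes that did not pass, red diamonds for limma adjusted p under 0.05 with the pairs in the fit and a black bar for each list's median. Bnip3 (-2.88), Bnip3l (-1.56) and Wdfy3 (0.71) passed, and the medians of the lists lay between -0.05 and 0.28.

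None of the genes in the 9 remaining lists passed limma, with or without the pairs. Over all 10 lists, 22 of 153 genes were higher and 12 lower at an unadjusted limma p under 0.05 with the pairs. Of all 10533 tested genes, 781 were higher and 1432 lower. DESeq2 with the pairs called 13 higher and 3 lower, against 318 and 420 of all tested genes. Median log2 changes were 0.14 for 38 other lysosomal enzymes, 0.07 for 19 other membrane proteins and 0.20 for 17 subunits of the V-ATPase, the proton pump of the lysosome. The genes with the highest mean CPM over the 6 libraries, not divided by length, were Npc2, a cholesterol carrier (0.04), Laptm5, a lysosomal membrane protein of blood cells (-0.18), and Atp6v1a, the catalytic subunit of the pump (0.35). The largest differences were in Pld3, at 7.69, 9.80 and 9.52 and at 5.56, 79.0 and 42.6 (1.51), Npc1, a cholesterol transporter (0.72), and Atp6v0a1 (1.05). Pld3 was low in labelled knockout replicate 1 and high in replicates 2 and 3, as the cathepsins Ctsb, Ctsd and Ctsl were.

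For sorting of enzymes to the lysosome, the 12 genes had a median of 0.01, with M6pr, the small mannose 6-phosphate receptor, at 230.0 ± 21.4 and 223 ± 6.10. Sort1, the sorting receptor sortilin, was at 0.935, 1.96 and 2.05 and at 0.898, 32.9 and 15.6 (1.98). The 14 genes of nutrient sensing at the lysosome had a median of -0.02, with Rheb, the activator of mTORC1, at 0.07. Fnip2, a partner of folliculin, was at 1.84, 2.41 and 1.80 and at 0.965, 36.8 and 20.6 (1.96). Sort1 and Fnip2 too were high only in the libraries high for myeloid markers.

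Genes that build autophagosomes lay near 0. Medians were -0.03 for 19 initiation genes, -0.05 for 8 ATG8 conjugation genes and 0.05 for 13 fusion genes. Wipi2, which recruits the conjugation machinery, was at 102 ± 1.13 and 107 ± 2.57 (0.06), and Atg3, an enzyme of ATG8 conjugation, at 73.5 ± 11.2 and 77.0 ± 12.5 (0.06). The largest differences were -0.25 for Atg9a, the membrane protein of autophagosome seeds, and -0.13 for Atg10. Vps16, a subunit of the tethering complexes that fuse vesicles with the lysosome, was at 128 ± 7.87 and 99.4 ± 6.06 (-0.36, paired adjusted p = 0.0508). Among the cystatins, which inhibit cathepsins, Cst3 was at 95.4 ± 16.6 and 105 ± 12.9 (0.15), and Cstb at 17.3, 16.9 and 17.4 and at 14.4, 39.5 and 25.5 (0.49).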

How the data were processed

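RNA-seq libraries of 6 lymphoma B cell samples were used. The authors deposited a signal per gene, named FPKM in their table, but in each library all values (100%, tolerance 0.01 reads) were whole multiples of 1 step shared by all genes, so the deposited signal is reads divided by an effective library size, 0.97 to 1.04 times the recovered total. Per the submitters' processing notes, CASAVA, STAR 2.4.2a, HTSeq, edgeR and mm9 were used, with no role given. Neither the annotation nor the strandedness used in counting is given in the sources used here. Per the labels, library preparation was directional. Genes with no read in any library numbered 919 of 21448.

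Genes with a mean of at least 1 (10533) were analysed as log2(value + 1) with limma 3.58.1 in R 4.3.3 (trended variance, two-sided, Benjamini-Hochberg over all tested genes, threshold 0.05), first without and then with the replicate number as a block. The test was checked on simulated counts with a fixed dispersion and small replicate effects. That check does not cover genes whose values differ as widely within a group as those of Ctsd. Across genes, libraries of equal number had deviations from their group means that correlated at 0.73, 0.73 and 0.84, which is where the pairing comes from, since the labels do not state a shared mouse. The series' design calls the libraries biological replicates. No 2 libraries agreed within counting noise (chi-square per degree of freedom at least 49.4). Count tests on recovered reads used edgeR 4.0.16 (quasi-likelihood, TMM) and DESeq2 1.42.0. Plots used Python 3.11.15 and matplotlib 3.10.9.

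Members, lists and alternatives were chosen with earlier results of these data known. All members are named. Values in every library are given for members that passed, the 4 of each class with the highest mean over the 6 libraries (CPM, not divided by length) and the TFEB family. From each other list the genes that passed, the one with the highest such mean and the one with the largest change are named. The values in every library of Ctsa, Ctsl, Lgmn, Lipa, Gabarapl1, Atg5 and Wipi1 fall outside this rule and were chosen after they were seen. So were the values given for the markers Cd22, Rag1, Ms4a1, Pf4, Ppbp, Itga2b, Cd28, Cd8a and Pecam1. Alternatives were other pseudocounts (0.1 and 5), filters (none and 10), scalings, left-out libraries and count tests. Myeloid, B cell, T and NK cell, erythroid and platelet, and stromal and endothelial markers (the last summing to 52.0 to 102 per library) were summed.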

Additional observations from a re-analysis of the deposited data

How the results depend on the processing

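Without the pairs limma called 0 of 34 members and 1 of all tested genes. With the replicate block these counts were 1 and 92. The counts over all genes were 0 with a pseudocount of 0.1 or 5, with no filter, with a filter of 10, under quantile normalization, without labelled knockout replicates 2 and 3 and in edgeR. They were 39 in edgeR with the replicate block, 110 in DESeq2 and 738 in DESeq2 with the replicate block, which also called 2 members. With 1 library or pair left out, 0 to 18 members and 0 to 840 genes were called. In the other lists limma and edgeR each called 0 genes without the replicate block and 3 with it. DESeq2 called 3 without the block and 16 with it. The cause of these differences was not tested.

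Class medians moved without labelled knockout replicates 2 and 3, to -0.21 for other hydrolases, -0.087 for membrane proteins and -0.39 for the TFEB family, whose median was -0.32 with a filter of 10, which leaves Tfeb alone. Without the same 2 libraries, log2 changes turned for Ctsb (-0.62), Ctsd (-0.64), Ctsl (-0.79), Ctsz (-0.28), Lipa (-0.25), Hexa (-0.21), Gla (-0.28), Gaa (-0.087), Psap (-0.29), Grn (-0.15), Lamp1 (-0.0045), Lamp2 (-0.13), Cd63 (-0.50), Mcoln1 (-0.045), Mitf (-0.51), Gabarap (-0.094), Gabarapl1 (-0.85) and Becn1 (-0.036). With 1 library or pair left out, log2 changes spanned 0 for Ctsh (-0.022 to 1.43), Ctsz (-0.21 to 0.22), Gaa (-0.038 to 0.22), Gm2a (-0.47 to 0.13), Map1lc3b (-0.043 to 0.17), Gabarap (-0.0053 to 0.27), Ulk1 (-0.035 to 0.19) and Becn1 (-0.044 to 0.093). Leaving out single libraries alone, Ctsz lay between -0.18 and 0.20 and Gaa between -0.0071 and 0.22, and Becn1 was at -0.019 without pair 2. In limma the replicate block leaves log2 changes as they are and among members changed the call of Dnase2a only. In edgeR and DESeq2 it also moved log2 changes, in DESeq2 from 2.92 to 2.19 for Ctsd. DESeq2 called Dnase2a and Lamp1 with the block only. Of 709 values over 34 members and 21 alternatives, 31 changed sign, in 22 members, 21 came past the threshold and 657 kept their direction and their side of it.

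Depth limits the low members: in labelled knockout replicate 1, values rest on 22 reads for Cd63, 12 for Gabarapl1 and 19 for Wipi1.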
